A study of Mus musculus with 24 samples.

Results

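The first and the second day of a time course were compared in mouse embryonic stem cells that lack both REV-ERBα and REV-ERBβ and had been differentiated through embryoid bodies. The comparison used the 12 knockout (KO) libraries of the 24 in the series. KO libraries from 12, 16, 20, 24, 28 and 32 h after dexamethasone formed the first day (6 libraries), and those from 36, 40, 44, 48, 52 and 56 h formed the second (6 libraries). Each library of the second day was set against the library from 24 h earlier, which gave 6 pairs of equal circadian phase. Both KO and control (WT) cells carried the Per2::Luciferase knock-in and received 100 nM dexamethasone once, at day 28 of differentiation. The KO cells were a line cloned in 2 steps with CRISPR/Cas9, in which exons of the REV-ERBβ gene and then of the REV-ERBα gene had been removed. There was 1 library per genotype and hour, each from the pooled RNA of 3 embryoid bodies, so that successive hours stood in for replicates and the p-values measure only the spread between these libraries. The 2 days differed in the time since dexamethasone, in the time in culture and in the time since the last change of medium, and these cannot be told apart.

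REV-ERBα (Nr1d1) and REV-ERBβ (Nr1d2) are nuclear receptors that repress transcription, among others of Arntl, which encodes the clock activator BMAL1. The clock itself is a loop in which CLOCK and BMAL1 switch on the Per, Cry and Nr1d genes and the PER and CRY proteins switch their own genes off again. Dexamethasone, a synthetic glucocorticoid, sets the clocks of cultured cells to a common phase and also acts on inflammation, metabolism and the extracellular matrix through the glucocorticoid receptor. A purely circadian gene with an undamped 24 h rhythm has the same level 24 h apart. A difference between the days of this design can hold a slower change, a rhythm that damps or is not of 24 h, or a difference between separately pooled embryoid bodies, and these cannot be told apart.

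Expression was measured by sequencing of polyA RNA and given as RPKM, the reads of a gene scaled to the length of its exons and to the library's mapped total. Between 6183500.5 and 8896751 fragments per library lay on exons on the first day (median 7188480.75) and between 6312526 and 9868080 on the second (median 8691463.5). The number was higher on the second day in 5 of 6 pairs (exact sign-flip permutation test, two-sided, p = 0.09375, where 0.03125 is the smallest p that 6 pairs allow). Exons took 45.2% to 46.0% of each library total, and the median correlation of a library with the rest was 0.984 to 0.990 (across genes, which are not independent). The 16, 24 and 56 h KO libraries stood apart in the genes of liver and yolk sac endoderm. The summed level of that list of 23 genes was 1495 RPKM at 16 h, 826 RPKM at 24 h and 1479 RPKM at 56 h, against 187 to 355 RPKM in the other 9 libraries. No gene of the list was called, and its median log2 difference was -0.05, but 0.35 without the 16 and 40 h pair and -0.64 without the 32 and 56 h pair. Nr1d1 was at 2.48 to 9.65 RPKM on the first day and at 4.48 to 9.74 RPKM on the second in KO. The counts over a whole gene do not show the loss of single exons and so do not check the genotype. Because RNA came from mixed tissue, fewer cells of a type and less RNA per cell cannot be told apart in any result below.

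Across the KO pairs 14763 genes were tested, and 139 differed between the days at an adjusted p under 0.05. Of these, 108 were higher on the second day, 0.732% of the genes tested, and 31 were lower, 0.21%. All 108 were higher in 6 of 6 pairs and all 31 were lower in 6 of 6 pairs. The changes were small for most of them, with a median log2 difference of 0.47 among the higher genes and -0.37 among the lower genes. 13 genes rose by more than 1 on the log2 scale and 5 fell by more than 1. The values of the days did not overlap for 58 of the 108 higher and 17 of the 31 lower genes, against 1.98% of all genes tested. Calling the genes on these same libraries favours both agreement of all pairs and a gap between the days. The median over all genes was -0.004 on the RPKM scale, which is set to each library's total. The number of calls depended on which pair was left out. It was 39 without the 12 and 36 h pair, 41 without 16 and 40 h, 47 without 20 and 44 h, 97 without 24 and 48 h, 74 without 28 and 52 h and 59 without 32 and 56 h. Of the 139 genes, 26 stayed called whichever pair was left out. The total was 226 without the block for the pairs and 16 where the variance prior had no trend with expression. Each of the 139 genes kept its direction in every one of the 15 alternatives in which it was tested (a minimum of 1 RPKM dropped some genes of low level). Only quantile normalization and median ratio scaling could have changed a direction, since each gene moved the same way in 6 of 6 pairs. 8 genes were called without the 3 pairs that hold the 16, 24 or 56 h library, all higher, 5 of them among the 139. Leaving these pairs out was chosen after the values were seen and could not change a direction. The part of the liver and yolk sac RNA in the calls was not tested beyond this.

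**Figure D1:**
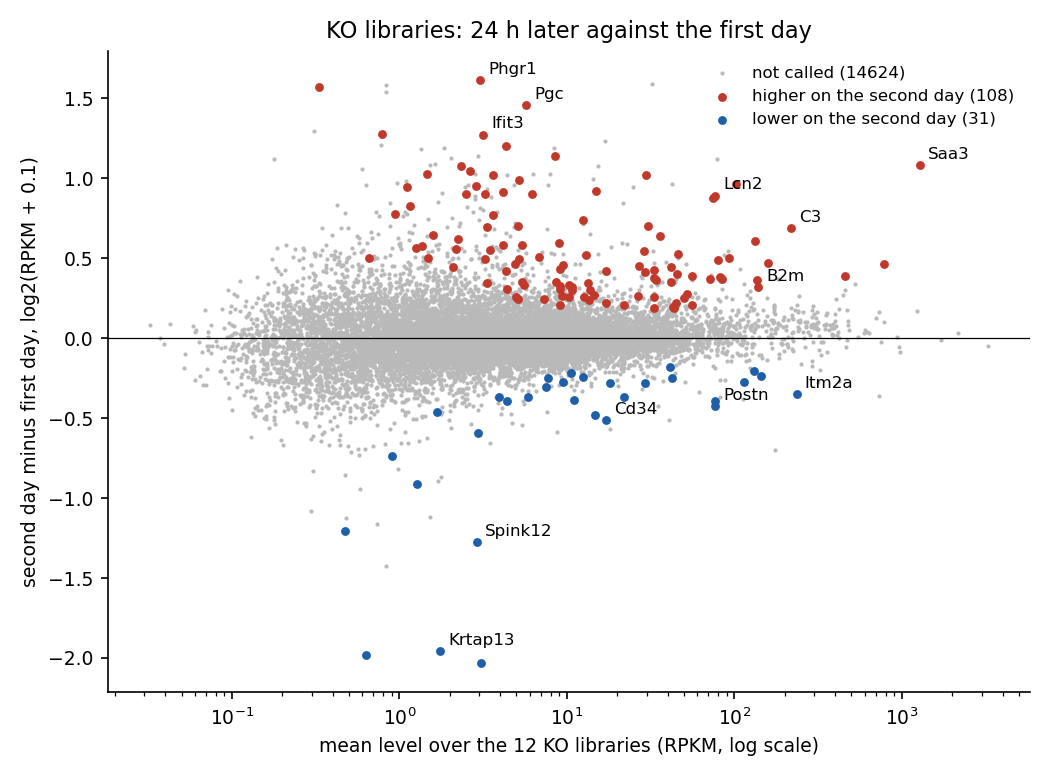
Change between the days against expression level in KO. Each point is a gene, the x axis is its mean level over the 12 KO libraries in RPKM on a log scale, and the y axis is the second day minus the first in log2(RPKM + 0.1). Red points are the 108 genes called higher, blue points the 31 called lower, and grey points were not called. Saa3 combines a high level with a difference of 1.08, and Krtap13 lies near -1.96 at a low level.

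The highest expressed of the genes with a large rise encode secreted acute-phase and complement proteins, which liver and other epithelia release during inflammation. Saa3, serum amyloid A3 (uc009gyx.1, mm10 chromosome 7, 46711998 to 46715676, minus strand), ranged from 595 to 1009 RPKM on the first day (median 850) and from 1442 to 2155 RPKM on the second (median 1654). Every second-day library was above every first-day library. The log2 difference was 1.08 ± 0.10 (SE, n = 6 pairs; limma, adjusted p = 0.00257), a 2.12-fold rise.

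Lcn2, lipocalin 2, binds bacterial siderophores and is a glucocorticoid-responsive gene (uc008jfl.1, chromosome 2, 32384637 to 32387739, minus strand). It stood at 42.4 to 67.1 RPKM on the first day (median 53.8) and at 82.8 to 115 RPKM on the second (median 101), again with no overlap. Its log2 difference was 0.89 ± 0.06 (SE, n = 6 pairs; limma, adjusted p = 9.26e-04). Both genes kept their calls without any 1 pair, with a highest adjusted p of 0.0156 for Saa3 and 0.0093 for Lcn2.

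Hp, haptoglobin, which binds free haemoglobin, went from a median of 68.8 RPKM (49.0 to 98.0) to a median of 131 RPKM (115 to 157), with a log2 difference of 0.96 ± 0.14 and an adjusted p of 0.0244 (limma), kept in 3 of the 6 fits with a pair left out. C3, the central complement component, went from 150 RPKM (115 to 235) to 248 RPKM (199 to 359), a log2 difference of 0.69 ± 0.06 (limma, adjusted p = 0.00257). The days overlapped for C3 although every pair rose. The copper carrier Cp (log2 difference 0.53) and the complement protease C1ra (0.41) rose as well. Saa1, on the same chromosome as Saa3, had a log2 difference of 1.09 ± 0.26 at about 1 RPKM and was not called (limma, adjusted p = 0.105).

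Hp, C3, Cp and C1ra were picked out after their values had been seen. In a list of acute-phase and complement genes written down for this purpose afterwards, 6 of 19 expressed members were higher, none was lower, and 18 had a log2 difference above 0. The median of the list was 0.41, and in WT it was 0.35. The summed level of the 19 genes was 1557 to 2424 RPKM on the first day and 2781 to 3916 RPKM on the second. Leaving out a pair left 4 to 6 members called. The liver also makes these proteins, and the part of liver RNA in the rise was not tested. A fit without the 3 pairs that hold a library rich in liver and yolk sac RNA was chosen after the values were seen. In it 3 members were called, 18 stayed above 0 and the median was 0.55. There Saa3 had a log2 difference of 1.17 (limma, adjusted p = 0.0493) and Lcn2 of 0.98 (limma, adjusted p = 0.0325), while Hp, at 1.09 (limma, adjusted p = 0.128), and C3, at 0.72 (limma, adjusted p = 0.077), were not called.

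**Figure D2:**
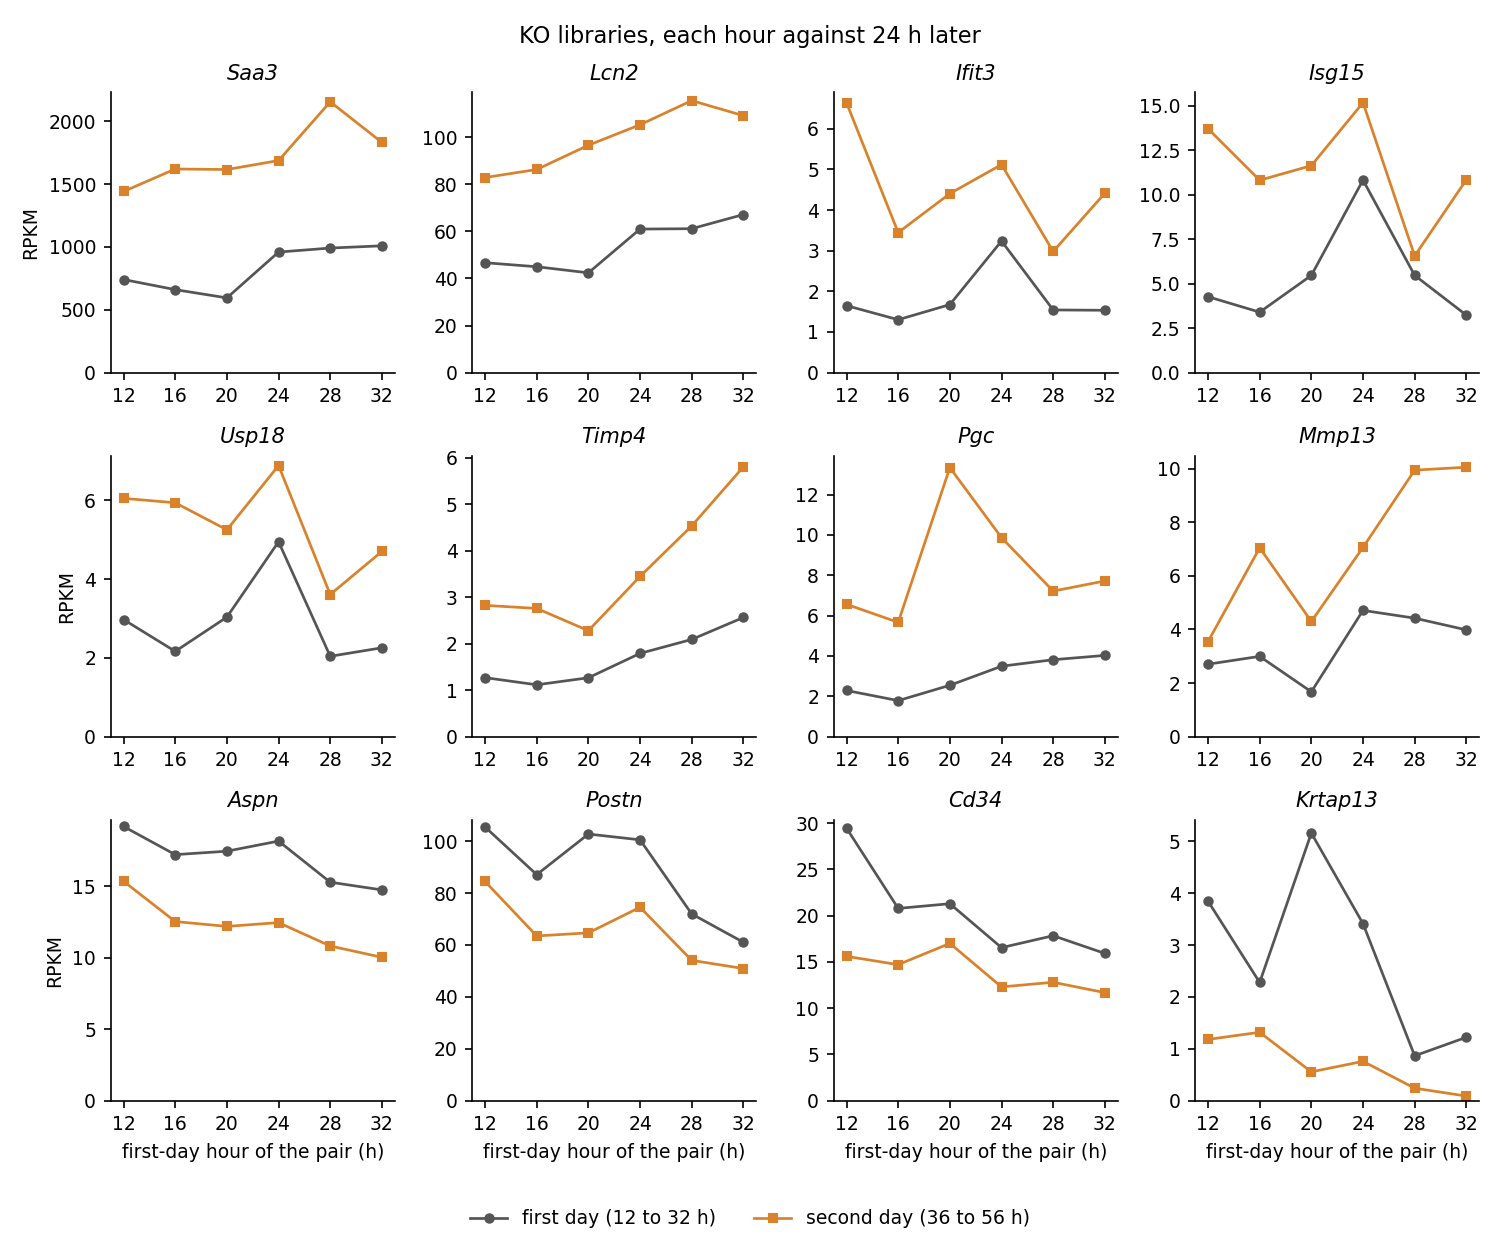
Levels of 12 genes in each KO library. The x axis gives the hour of the first-day library of a pair, the y axis the level in RPKM, grey circles the first day and orange squares the library 24 h later. For Saa3 and Lcn2 the orange line lies above every grey point, Timp4 climbs within each day as well as between the days, and Aspn, Postn, Cd34 and Krtap13 lie lower on the second day at every hour.

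Of the listed interferon-induced genes, 9 of 22 were higher on the second day. Interferons bind surface receptors and, through the kinases JAK1 and TYK2 and the factor ISGF3, which contains IRF9, switch on genes for antiviral proteins, while glucocorticoids dampen much of this response. All 22 listed genes were expressed. Those higher were Ifit3, Isg15, Rtp4, Usp18, Oasl2, Gbp3, Bst2, Oas1a and Ddx58, none was lower, and the log2 difference was above 0 for all 22, with a median of 0.63. Among all genes tested, 7158 of 14763 were above 0 and the median was -0.004. The summed level of the 22 genes was 127 to 186 RPKM on the first day and 225 to 264 RPKM on the second, so that the days did not overlap. The number of members called was 2 without the 16 and 40 h pair, 3 without 12 and 36 h, 5 without 32 and 56 h, 6 without either 20 and 44 h or 28 and 52 h, and 8 without 24 and 48 h. It was 0 where the variance prior had no trend and 0 without the 3 pairs that hold the 16, 24 or 56 h library, where all 22 were above 0 and the median was 0.68. All 22 stayed above 0 under quantile normalization and under median ratio scaling.

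Many genes of this list hold a motif near their starts, which the comparison did not use. ISGF3 binds the interferon-stimulated response element, searched here as GAAANNGAAA on either strand (TTTCNNTTTC on the other), in the 300 bases around each RefSeq transcription start (250 before to 50 after, GRCm38.p6). The motif stood in the window of 11 of the 17 listed genes with a promoter in the table, 64.7%, and of 6 of the 7 members called higher. Of all 27025 genes with such a window, 1079 held it, 3.99%, and of the 10787 tested in KO 385 did, 3.57%. Among the 77 genes called higher with a window 17 held it (22.1%), the 6 list members included, and among the 21 called lower 0 did. A match is a description of these letters and not evidence of binding or of a change between the days. The stretches of the 6 called members are shown because they hold this motif, 30 bases each along the strand of the gene, with the motif in capitals. They lie at chr19:34583363-34583392 (plus strand), chr4:156200871-156200900 (minus), chr5:120907520-120907549 (minus), chr3:142559989-142560018 (plus), chr8:71537577-71537606 (minus) and chr4:40239804-40239833 (minus), in the order printed.
Ifit3: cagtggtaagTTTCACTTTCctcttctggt
Isg15: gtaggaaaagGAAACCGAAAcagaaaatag
Oas1a: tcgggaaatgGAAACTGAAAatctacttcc
Gbp3: caggacacagTTTCAGTTTCtatttcccag
Bst2: ccaggaaaatGAAACTGAAAggctgcagtt
Ddx58: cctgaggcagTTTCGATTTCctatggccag

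Ifit3, whose product binds foreign RNA together with other IFIT proteins, was at 1.303 to 3.24 RPKM on the first day (median 1.60) and at 2.98 to 6.64 RPKM on the second (median 4.41). Only the 24 h library of the first day, at 3.24 RPKM, reached into the range of the second. The log2 difference was 1.27 ± 0.15 (SE, n = 6 pairs; limma, adjusted p = 0.0102), and it was called without any 1 pair. Ifit3b, a close copy of Ifit3, had a difference of 1.28 (limma, adjusted p = 0.0319), and reads may have been split between the copies.

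Isg15 encodes a ubiquitin-like protein that is attached to other proteins after interferon. Its range was 3.23 to 10.8 RPKM (median 4.87) on the first day and 6.56 to 15.2 RPKM (median 11.2) on the second. The difference of 1.14 ± 0.20 had an adjusted p of 0.0401 (limma), and 2 of the 6 fits with a pair left out kept the call (limma, adjusted p up to 0.13, without 16 and 40 h). Usp18, the protease that takes ISG15 off again, rose by 0.91 ± 0.11 (limma, adjusted p = 0.0104). Bst2, tetherin, which holds enveloped viruses at the cell surface, was by far the highest expressed member called, at 81.7 to 137 RPKM on the first day and 150 to 168 RPKM on the second, with a difference of 0.61 ± 0.09 (limma, adjusted p = 0.0183).

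The 24 h library was the highest of the first day for Ifit3, Ifit3b, Isg15 and Usp18 together, and it stood apart from the other 5 libraries of that day in each. Its summed level over the list, 185 RPKM, was close to that of the 28 h library, 186 RPKM. Without the 24 and 48 h pair the median of the list was 0.69.

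Outside the list, further interferon-responsive genes rose, named here after their values were seen. Ifi27l2a went from 16.1 to 22.3 RPKM (median 19.9) to 31.6 to 43.4 RPKM (median 41.8), with a log2 difference of 1.02 ± 0.07 (limma, adjusted p = 9.26e-04), one of the smallest adjusted p-values of the comparison. The GTPase gene Iigp1 (0.77), the restriction factors Ifitm3 (0.47) and Ifitm1 (0.43), the RNA sensor Dhx58 (0.57), the ISGF3 subunit Irf9 (0.33), Oas2 (0.65), Xaf1 (0.51), Siglec1 (0.59) and the lipid-binding protein genes Apol9a (1.03) and Apol9b (0.94) were also called. Apol9a and Apol9b are near copies of each other.

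MHC class I molecules present peptides from within the cell to T cells, and interferon raises their synthesis. B2m, the light chain common to all of them, was at 116 to 132 RPKM on the first day and at 145 to 168 RPKM on the second, with no overlap and a difference of 0.32 ± 0.04 (limma, adjusted p = 0.01). The heavy-chain genes H2-K1 (0.45), H2-D1 (0.40), H2-T23 (0.52), H2-Q4 (0.50) and H2-T24 (0.83), the peptide transporter gene Tap2 (0.35) and Tapbp (0.26), whose product loads the peptides, were higher too. In a list of 16 class I genes made after these values were seen, 8 were higher, none was lower and 15 were above 0, with a median of 0.33 in KO and 0.19 in WT. Leaving out a pair left 3 to 7 of them called. The heavy chains are paralogs between which reads may have been divided. H2-Aa, a class II gene, went the other way, from 0.574 to 0.859 RPKM to 0.149 to 0.386 RPKM, on a mean of 8.38 fragments per library.

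Stomach genes were among the largest rises. Pgc, the zymogen pepsinogen C, was at 1.78 to 4.03 RPKM on the first day (median 3.02) and at 5.66 to 13.3 RPKM on the second (median 7.47). Its log2 difference of 1.46 ± 0.17 (limma, adjusted p = 0.01) held without any 1 pair. Pga5, another pepsinogen gene, had a median of 1.44 RPKM (0.965 to 2.13) and then of 3.44 RPKM (1.83 to 3.80), a difference of 1.08 ± 0.13 (limma, adjusted p = 0.0116). Phgr1, expressed in gut epithelium, had the largest called rise, 1.62 ± 0.29 (limma, adjusted p = 0.0434), from 0.409 to 2.89 RPKM to 3.69 to 5.45 RPKM, and 1 of the 6 fits with a pair left out kept the call (limma, adjusted p up to 0.149, without 16 and 40 h). These 3 were the called members of a list of 15 expressed stomach and gut genes made afterwards, of which 11 were above 0. The summed level of that list, 40.2 to 85.6 RPKM on the first day and 54.7 to 86.5 RPKM on the second, overlapped between the days.

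Single genes of several other functions rose. Timp4, an inhibitor of matrix metalloproteinases, went from 1.12 to 2.57 RPKM to 2.28 to 5.81 RPKM and was highest in the last library of either day, with a difference of 1.04 ± 0.07 (limma, adjusted p = 9.26e-04). Timp4 lies within Syn2 on the opposite strand, and Syn2 was at 0.482 RPKM. Mmp13, collagenase 3, had a difference of 0.99 ± 0.13 (limma, adjusted p = 0.0165). Timp4 and Mmp13 were the called members among 18 matrix proteases and inhibitors, whose median was 0.003.

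The lists that follow are to be read against the 0.732% of all genes called higher and the 0.21% called lower. Of 26 expressed glucocorticoid-induced genes, 3 were higher (Saa3, Lcn2 and Tgm2, a transglutaminase, 0.35 ± 0.05), none was lower, and the median was 0.13, with 19 above 0. Fkbp5, a feedback regulator of the glucocorticoid receptor, was at 25.7 to 28.9 RPKM and then at 29.7 to 34.4 RPKM, and its difference of 0.20 missed the threshold (limma, adjusted p = 0.0577). Of 14 expressed inflammatory genes that glucocorticoids repress, 1 was higher (Mmp13), none was lower, and 10 were above 0 (median 0.15). In the antioxidant list driven by NRF2, Hmox1, haem oxygenase 1 (0.21 ± 0.03), and Fth1, the ferritin heavy chain (0.47 ± 0.08), were higher among 19 genes with a median of 0.01. Jund, a subunit of AP-1, was the 1 call among 24 immediate early genes (0.25). Txnip, which binds thioredoxin and limits glucose uptake, rose by 0.36 ± 0.03 (limma, adjusted p = 0.00257) with no overlap of the days.

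Use of the strand in counting is not given in the sources used here, so opposite genes that overlap cannot be told apart. Of the 139 called genes, 8 formed 4 pairs that overlap on opposite strands and were called in the same direction, Txnip with Gm15441, Rarres2 with Lrrc61, Tapbp with AK140218 and Hsp90b1 with 1810014B01Rik. In all, 23 of the 139 overlapped another expressed gene.

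The 31 genes that were lower on the second day included genes of connective tissue, vessels and skin. Postn, periostin, a matrix protein of fibroblasts (uc008pfh.2, chromosome 3, 54361107 to 54391041, plus strand), was at 61.0 to 105 RPKM on the first day (median 93.8) and at 50.9 to 84.5 RPKM on the second (median 64.1). It was lower in each pair, the ranges overlapped, and the log2 difference was -0.42 ± 0.05 (limma, adjusted p = 0.0112). Aspn, asporin, a small collagen-binding proteoglycan, had ranges of 14.8 to 19.2 RPKM and 10.03 to 15.4 RPKM and fell by 0.48 ± 0.04 on the log2 scale (limma, adjusted p = 0.00249). It was called under all 15 alternatives. Col5a2, a collagen V chain, went from 116 to 136 RPKM to 97.3 to 113 RPKM without overlap, a difference of -0.27 ± 0.04 (limma, adjusted p = 0.0212), and it was the 1 call among 17 collagens (median -0.09, 5 above 0). Fkbp10, a collagen chaperone (-0.18), Sulf1 (-0.38), Wisp1 (-0.27), Adam12 (-0.37) and Fstl1 (-0.24) were also lower. These 5 genes were set together after their values were seen.

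Dlk1, a Notch-like inhibitor of adipocyte differentiation, fell from 79.8 to 96.2 RPKM to 59.8 to 76.9 RPKM, a log2 difference of -0.39 ± 0.06 (limma, adjusted p = 0.0308). Fabp4, the fatty acid carrier of adipocytes and macrophages, rose from a median of 76.8 RPKM (65.4 to 92.8) to a median of 105 RPKM (91.4 to 126), a difference of 0.50 ± 0.05 (limma, adjusted p = 0.00316), and Cebpb, a factor of early adipocyte differentiation and of acute-phase genes, by 0.39 ± 0.07 (limma, adjusted p = 0.047). These 3 genes were set beside each other after their values were seen.

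Cd34, a surface sialomucin of endothelial and stromal progenitors, was at 15.9 to 29.4 RPKM and then at 11.7 to 17.0 RPKM, a difference of -0.51 ± 0.07 (limma, adjusted p = 0.0175). Emcn, endomucin, had a difference of -0.74 ± 0.12 (limma, adjusted p = 0.0339) and was the 1 call among 18 endothelial genes, of which 3 were above 0 and whose median was -0.27. Leaving out a pair left no endothelial gene called. The scavenger receptor genes Stab1 (-0.37) and Msr1 (-0.28), expressed in macrophages, were lower, while the macrophage lysosomal genes Ctss (0.28) and Cd68 (0.34) were higher. The median over the 19 expressed genes of the macrophage and leukocyte list was 0.01, and its summed level was 915 to 1120 RPKM on the first day and 933 to 1156 RPKM on the second.

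Genes of hair and cornified skin had the largest falls. Krtap13, a keratin-associated protein of the hair shaft (uc007zvc.2, chromosome 16, 88750744 to 88751628, minus strand), was at 0.864 to 5.16 RPKM on the first day (median 2.85) and at 0.0872 to 1.32 RPKM on the second (median 0.655). The difference was -1.96 ± 0.27 (limma, adjusted p = 0.0183), and 4 of the 6 fits with a pair left out kept the call. 2310034C09Rik, its neighbour on chromosome 16 (88758847 to 88759789), differed by -2.03 (limma, adjusted p = 0.0183). The protease inhibitor Spink12 (-1.28), the filaggrin-like Hrnr (-0.91) and Casp14, the caspase of cornifying cells (-0.59), were also lower. These genes varied widely among the libraries of 1 day.

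In a list of 23 expressed cornified-skin genes made afterwards, 4 were lower (Krtap13, Spink12, Hrnr and Casp14), 1 was higher (Sprr2d, 0.92), and 9 were above 0. Its summed level was 669 to 1277 RPKM on the first day and 660 to 1526 RPKM on the second. 

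Hsp90b1, a chaperone of the endoplasmic reticulum, was at 136 to 147 RPKM and then at 114 to 132 RPKM, a difference of -0.21 ± 0.04 (limma, adjusted p = 0.0413). It was the 1 call among 19 such chaperones, of which 1 was above 0 (median -0.12). No pair could be left out with the call kept. The read overlap with 1810014B01Rik applies here.

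Several lists held no gene that was called but had members on 1 side of 0. Of 32 genes of S and M phase, 0 was above 0, and the log2 differences ran from -0.48 to -0.07 with a median of -0.25. The replication helicase gene Mcm5, at 2.05 to 4.61 RPKM and then at 2.03 to 3.42 RPKM, gave -0.42 ± 0.13 (limma, adjusted p = 0.166), and the cyclin gene Ccnb2 gave -0.46 ± 0.13 (limma, adjusted p = 0.144). Of 23 heart and skeletal muscle genes, 23 were above 0, from 0.04 to 0.69 with a median of 0.31. The ventricular myosin gene Myl2 was at 5.32 to 13.6 RPKM and then at 7.94 to 20.6 RPKM, with a difference of 0.46 ± 0.19 (limma, adjusted p = 0.292). Of 30 genes of cytosolic ribosomal proteins, 29 were above 0 (median 0.09), but 22 were under quantile normalization (median 0.03). The 32 proliferation genes and the 23 muscle genes kept their sides under both other scalings. Without the 16 and 40 h pair 2 of the 32 proliferation genes were above 0 (median -0.16). The muscle genes above 0 were 21 of 23 without the 16 and 40 h pair (median 0.20), 21 without 24 and 48 h (0.23), 21 without 32 and 56 h (0.28) and 22 without 28 and 52 h. Without the 3 pairs that hold the 16, 24 or 56 h library 12 of the 23 muscle genes were above 0 (median 0.05) and 3 of the 32 proliferation genes (median -0.24). The members of such a list share cells and libraries, and their number is not a number of independent observations.

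The trophoblast list had a median of 0.39 over 11 expressed genes, 7 of them above 0 and none called. The median was 0.57 without the 20 and 44 h pair, where 2 members were called, 0.23 without 24 and 48 h, and 0.03 without the 3 pairs that hold the 16, 24 or 56 h library. Prl3b1, placental lactogen II, was at 9.26 to 28.7 RPKM and then at 17.7 to 46.0 RPKM (0.95 ± 0.22; limma, adjusted p = 0.0971), and Psg21, a pregnancy-specific glycoprotein gene, had a difference of 1.58 ± 0.32 (limma, adjusted p = 0.0611). Psg23, from the same family, was called higher (1.57) on a mean of 13.5 fragments per library. The summed trophoblast level ranged from 37.8 to 78.7 RPKM and then from 47.2 to 131 RPKM. In the neuron and glia list 1 of 14 genes was above 0 (median -0.25), although its summed level was highest in the 48 h library, 33.9 RPKM against 10.3 to 25.3 RPKM in the other 11. Without the 24 and 48 h pair the median was -0.49.

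**Figure D3:**
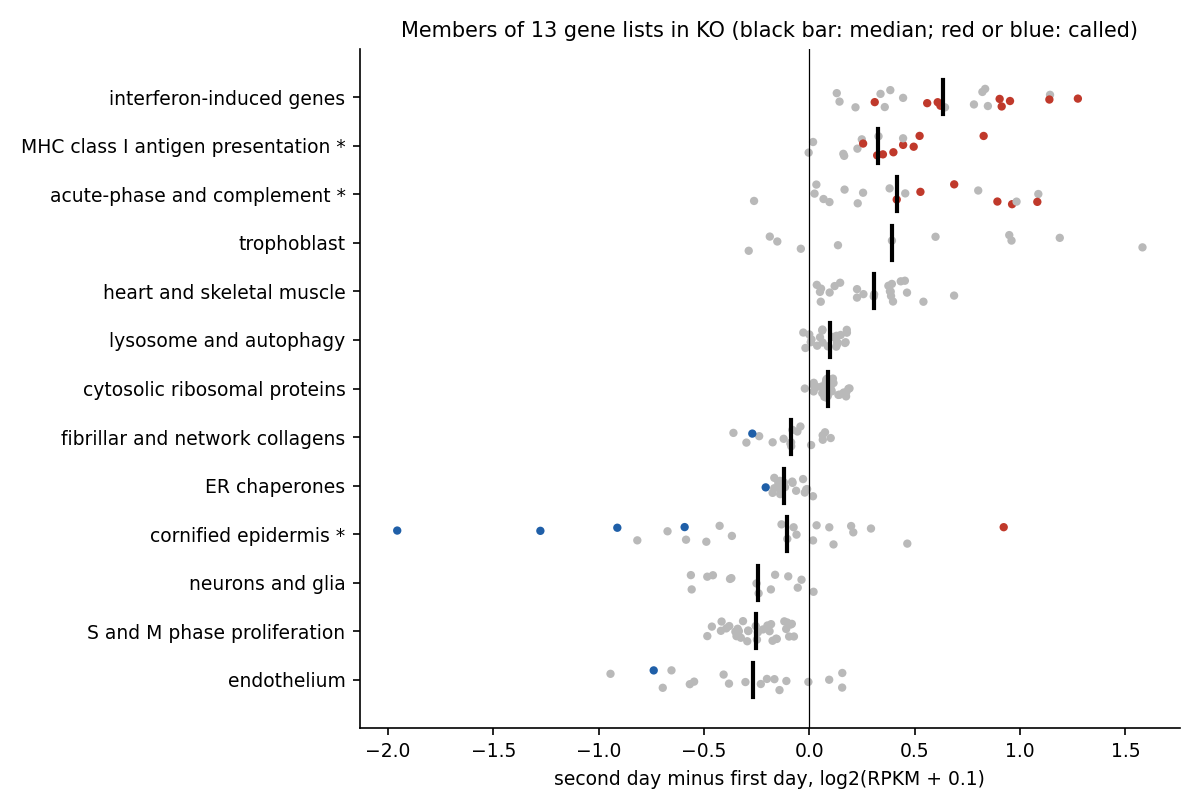
Differences between the days in KO for the expressed members of 13 gene lists. The x axis is the second day minus the first in log2(RPKM + 0.1), each point is a gene (vertical scatter only separates points), black bars are medians, and red or blue points were called higher or lower. Asterisks mark lists made after the values were seen, and the other lists were chosen with earlier results of these data known. All 22 interferon-induced genes lie right of 0 and all 32 S and M phase genes lie left of it.

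Slopes within the days were computed for the called genes, without a test. Of the 108 higher genes, 75 had a positive slope over the 6 libraries of the first day and 63 over those of the second, where 39.2% and 40.5% of all genes tested did. Of the 31 lower genes, 28 had a negative slope on the first day and 28 on the second. These slopes were computed after the calls were known and from the same libraries. The phase of a daily rhythm also enters such a slope, and its part was not tested.

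Clock gene levels did not pass the test for a difference between the days. No gene was called among the activators Arntl, Clock and Npas2, the Per and Cry genes, the Rev-erb genes or the output factors. Arntl was at 4.18 to 5.61 RPKM on the first day and at 4.47 to 5.19 RPKM on the second, with a difference of 0.01 ± 0.07 (limma, adjusted p = 0.97). Per2, whose locus carries the luciferase reporter, gave -0.19 ± 0.13 (limma, adjusted p = 0.5). Nr1d1 gave 0.32 ± 0.14 (limma, adjusted p = 0.31) and Dbp, an output factor of the PAR bZIP family, 0.28 ± 0.10 (limma, adjusted p = 0.24). Nr1d1 overlaps Thra and Dbp overlaps Sphk2 on the opposite strands.

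The range of the clock genes was narrower on the second day, without passing a test. Nr1d1 ran from 2.48 RPKM at 16 h to 9.65 RPKM at 28 h, a 3.88-fold range, and from 4.48 RPKM at 40 h to 9.74 RPKM at 52 h, a 2.18-fold range. The lowest and the highest library thus fell at the same phase on both days, and the trough was the part that was higher. Nr1d2, whose extremes fell at the same hours, had a 3.83-fold and then a 2.07-fold range. Per2 had its lowest value at 20 and at 44 h and its highest at 12 and at 56 h, which are not the same phase, and its range went from 3.44-fold to 2.05-fold.

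The amplitude of a 24 h cosine fitted to each day, on the log2 scale, was 1.11 and then 0.58 for Nr1d1, 1.03 and 0.56 for Nr1d2, 0.91 and 0.55 for Per2, 0.84 and 0.64 for Per3, and 0.58 and 0.31 for Cry1. For the PAR bZIP factors it was 1.12 and 0.82 for Dbp, 0.69 and 0.52 for Tef, and 0.77 and 0.43 for Hlf. It was smaller on the second day in 8 of these 8 genes in KO and in 7 of the 8 in WT, the exception in WT being Dbp (0.49 and 0.55). Over all genes tested it was smaller on the second day in 52.5%, with medians of 0.101 and 0.098.

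The test of a change in the 24 h rhythm between the days called 0 of 14763 genes (0%), with 1090 at an unadjusted p under 0.05 and a smallest adjusted p of 0.306 (limma). The adjusted p was 0.635 for Nr1d1, 0.543 for Nr1d2, 0.64 for Per2 and 0.65 for Dbp, so that no single gene passed. With 6 libraries a day the test had little reach. Of genes simulated with an amplitude of 0.5 on the first day and none on the second it recovered 20% (14720 genes in the simulation). Of those with an amplitude of 1 it recovered 95%. The simulated spread was fixed and held no tissue differences, so these shares need not hold for the real libraries. Without the 20 and 44 h pair 6 genes were called, among them Cubn, Amn and Apoc2 of yolk sac endoderm and liver, and without the 24 and 48 h pair Phlda2 was called. The liver and yolk sac list, which holds Cubn and Amn, was at 1495 RPKM in the 16 h, 826 RPKM in the 24 h and 1479 RPKM in the 56 h library, and its part in these calls was not tested.

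**Figure D4:**
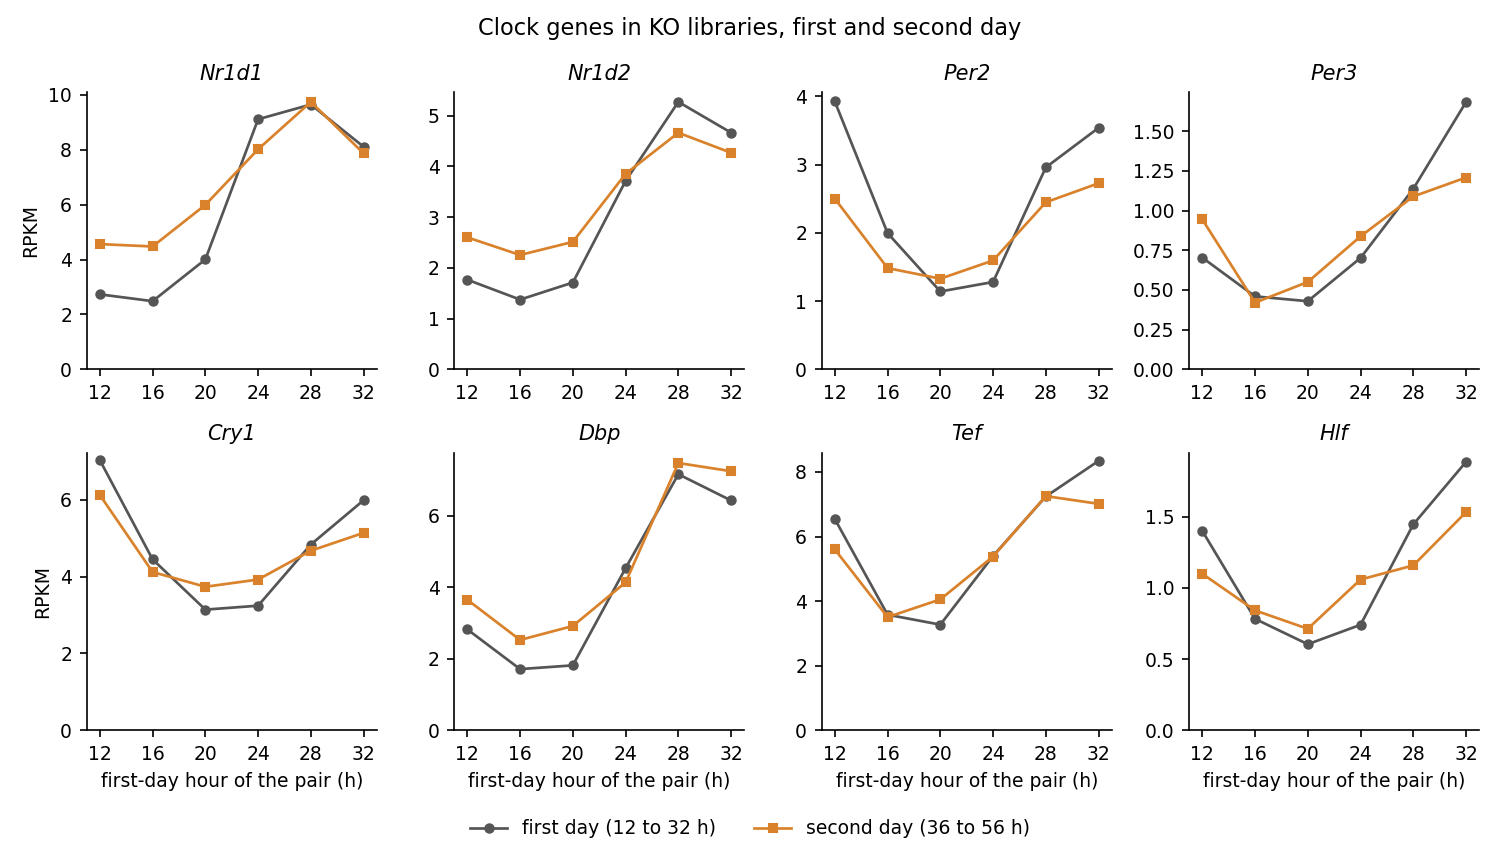
Levels of 8 clock genes in each KO library. The x axis gives the hour of the first-day library of a pair, the y axis the level in RPKM, grey circles the first day and orange squares the library 24 h later. The troughs of Nr1d1, Nr1d2 and Dbp lie higher on the second day while their peaks come at the same hour of the day.

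The same comparison in the 12 WT libraries gave the day difference in cells that have both REV-ERBs. In WT 38 genes were higher (0.254% of 14944 tested) and 14 were lower (0.0937%). Of the KO-higher genes that were tested in WT, 105 of 107 were above 0 there, with a median of 0.29, and 22 were called. Of the KO-lower genes, 28 of 30 were below 0 in WT, with a median of -0.23, and 4 were called. Saa3 rose by 0.86 and Lcn2 by 0.75 in WT on the log2 scale. The median of the 22 interferon-induced genes in WT was 0.62, with 1 call, and that of the S and M phase genes was -0.26. For heart and skeletal muscle the median was 0.02 in WT against 0.31 in KO, and for the trophoblast list -0.06 against 0.39. For cornified skin it was -0.70 in WT against -0.10 in KO, and for neurons and glia 0.28 against -0.25. The differences between the lists' medians were not tested.

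**Figure D5:**
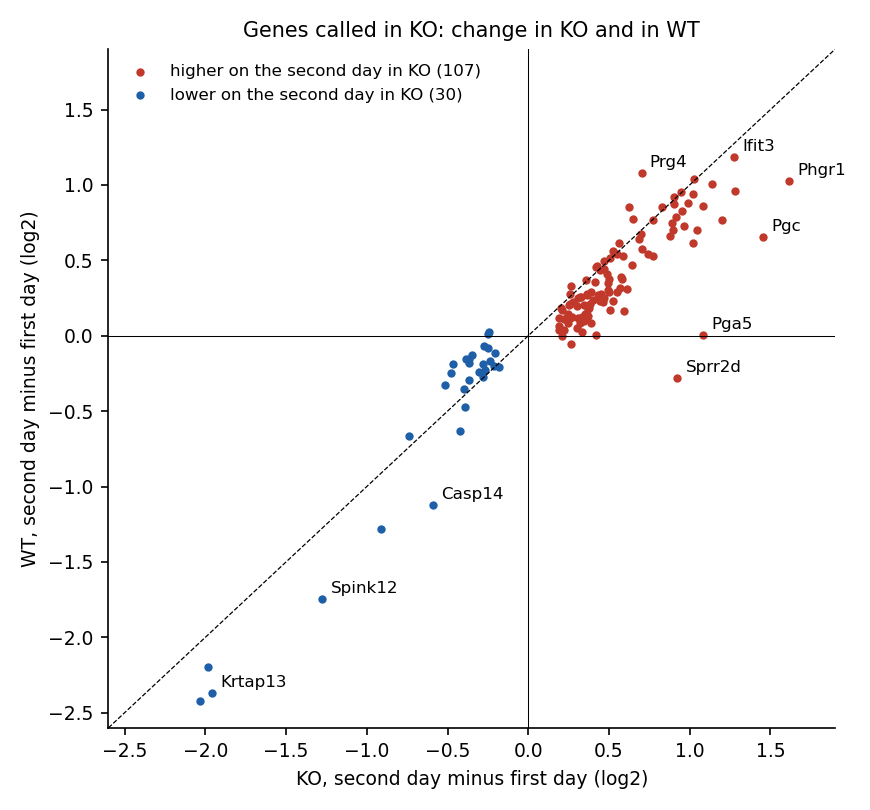
Change between the days in KO and in WT for the genes called in KO and tested in WT. The x axis is the second day minus the first in KO and the y axis the same in WT, both in log2(RPKM + 0.1), red points were called higher in KO (107) and blue points lower (30), and the dashed line marks equal changes. Most points lie on the same side of 0 in both genotypes, while Pga5 lies near 0 and Sprr2d below 0 in WT.

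No gene passed the test of the difference itself. Between the day change in KO and that in WT, limma called 0 of 15112 genes (0%), with 1043 at an unadjusted p under 0.05 and a smallest adjusted p of 0.621. In a simulation of 15056 genes the test recovered 48% of those with a 1.5-fold difference and 100% with a 2-fold difference. The simulated spread was fixed and held no tissue differences, so these shares need not hold for the real libraries. Sprr2d and Pga5, given below, differed by more than 2-fold and were not called. The lack of calls thus does not show that such differences are absent. Among the 139 genes called in KO, 36 had an unadjusted p under 0.05 for the difference. The change was larger in KO for 92 of the 108 higher and 22 of the 31 lower genes, which the choice of the genes in KO favours.

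The differences with the smallest p in that test were those of Esrra, Taf10, Sprr2d, Cyhr1 and Cish. Sprr2d, a small proline-rich protein of the cornified envelope, rose by 0.92 in KO and had a log2 difference of -0.28 in WT, and the KO change exceeded that in WT by 1.20 (95% interval 0.63 to 1.78; limma, adjusted p = 0.71). Sprr2d belongs to a cluster of near-identical genes. Pga5 had a log2 difference of 0.005 in WT, and the change in KO exceeded it by 1.08 (95% interval -0.14 to 2.29; limma, adjusted p = 0.73). For Saa3 the excess was 0.22 (-0.14 to 0.58), for Ifit3 0.09 (-0.65 to 0.83) and for B2m 0.06 (-0.05 to 0.17). The intervals of Pga5, Saa3, Ifit3 and B2m leave room for KO changes both smaller and larger than those of WT. That of Sprr2d lies above 0, but it is not adjusted for the choice of this gene by its small p.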

How the data were processed

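PolyA RNA was sequenced from differentiated KO and WT mouse embryonic stem cells at 4 h intervals. The authors deposited 1 table of RPKM values for 33079 genes, made with Trimmomatic 0.36, STAR 2.5.4b and HOMER per the labels and methods, on mm10 and the exons of a UCSC known-gene set. The deposited column headers give each library's total and the table its exonic length in bases (the annotation, other than the measurements). Counts of fragments were worked out from these for depth only. Values were tested as log2(RPKM + 0.1) with limma 3.58.1 in R 4.3.3, with a variance trend, a block for each of the 6 pairs and Benjamini-Hochberg adjustment, for genes with a mean of at least 0.5 RPM (fragments scaled to the library total). On this scale the changes of genes near 0.1 RPKM are understated. The difference between KO and WT and the change of a 24 h cosine and sine between days were fitted over all genes too.

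The methods of the study do not state a test between days. The members and the gene lists were chosen with earlier results of these data known. Genes were named by these rules: the 10 largest called rises and falls at 1 RPKM or more with 6 of 6 pairs in 1 direction, all clock genes, up to 4 per list by smallest p, and the 5 smallest p-values of each other test. Other genes were chosen after their values were seen, including some for which the text does not say so. A few genes that the rules name are not reported here. Deviations of paired libraries from their day means correlated at -0.256 to 0.223 (median -0.112, over 0.1 in 1 of 6 pairs), so that the pairing rests on the sampling hours alone. Alternatives covered scaling, filter, pseudocount, variance prior, model and each pair left out. In simulated data of 14723 genes for the KO day comparison, 91% of genes with a 1.5-fold and 100% with a 2-fold change were recovered, with 15 false calls. Simulated counts were drawn independently for each gene and library, with 1 fixed spread and flat means apart from the added change. Changes were added only to genes with a mean of at least 1 RPKM in KO, and libraries had no tissue differences. Intervals cover the spread between libraries, and promoter sequences are from RefSeq (GRCm38.p6), in which 10787 of 14650 tested gene symbols had an entry.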

Additional observations from a re-analysis of the deposited data

Results flagged for a closer look

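Each value here is 1 KO library that lay far from the other 5 of its day (Dixon's ratio of the gap to the range above the 95% critical value). Of 524 sets of 6 values examined, 26 met this, 4.96%, where chance gives about 1 in 20.

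On the first day the 24 h library was highest for the interferon-induced genes Ifit3b (0.9 RPKM, next 0.346), Ifit3 (3.239, next 1.67), Isg15 (10.82, next 5.47) and Usp18 (4.946, next 3.03), and also for Vegfa, the vascular growth factor (20.76, next 19.3), and the kinase gene Pim1 (8.765, next 7.94). Without the 24 and 48 h pair the median log2 difference of the interferon-induced list was 0.69 against 0.63. The 20 h library was highest for the ephrin gene Efnb2 (9.575 RPKM) and for Wisp1 (11.82 RPKM), the 32 h library for Ltbp1, which stores latent TGF-beta (29.82 RPKM), and for the haem synthesis gene Alas1 (14.2 RPKM), and the 16 h library for the vessel receptor gene Robo4 (1.372 RPKM).

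On the second day the 48 h library was highest for genes of neural cells, Nefm (0.4646 RPKM, next 0.0876), Elavl3 (0.5147, next 0.0768), Fabp7 (8.369, next 2.10) and Sox2 (3.36, next 1.41). The 36 h library was highest for Emcn (1.058 RPKM), Epor (0.6569 RPKM) and Ndufv2 (17.44 RPKM), and lowest for Pim1 (9.376 RPKM). The 40 h library was highest for Ptgs2 (2.617 RPKM) and Junb (41.48 RPKM). The 44 h library was highest for Dkk3 (11.58 RPKM), the 52 h library for Klf2 (12.11 RPKM), and the 56 h library was highest for Igfbp1 (13.19 RPKM) and Pou5f1 (1.372 RPKM) and lowest for Taldo1 (37.59 RPKM). Of these, Emcn, Efnb2, Wisp1, Alas1, Pim1, Ifit3, Ifit3b, Isg15 and Usp18 were called between the days.

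No named gene moved in all 6 KO pairs against all 6 WT pairs in the opposite direction.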

How the results depend on the processing

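The number of genes called in KO (139) was 30 with no filter on low values, 16 with a variance prior without a trend, 226 with no replicate block for the pairs and 336 with cosine and sine terms in place of the block, and 39 to 97 with each pair left out in turn. Of the 226, 103 were among the 139, and of the 336, 131 were. Quantile normalization gave 130 calls, of which 63.8% were higher against 77.7%, and pseudocounts of 1 and 0.01, a minimum of 1 RPKM and median ratio scaling gave 136, 134, 126 and 122. Without the 3 pairs that hold a library rich in liver and yolk sac RNA (16, 24 and 56 h) it was 8, an alternative added after the values were seen. Each of the 139 kept its direction wherever it was tested. Only quantile normalization and median ratio scaling could have changed a direction, since each gene moved the same way in all its pairs. 10 were called in all 15 alternatives, the one without the 3 pairs aside (Saa3, Lcn2, Ifi27l2a, Iigp1, Lgals3bp, Fabp4, Txnip, Timp4, Scnn1a and Aspn).

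In WT (52) the counts were 7 with no filter, 90 with quantile normalization (56.7% higher against 73.1%), 11 without the trend, 84 with no replicate block and 94 with cosine and sine terms, and 0 to 48 with a pair left out: 48 without 12 and 36 h, 5 without 16 and 40 h, 12 without 20 and 44 h, 19 without 24 and 48 h, 0 without 28 and 52 h (1398 at an unadjusted p under 0.05) and 9 without 32 and 56 h, by limma. The test of KO against WT stayed at 0 except with double differences by hour (1 gene, Prl7d1), and the rhythm test at 0 except with a pair left out (0 to 6). The cause of these shifts was not tested beyond the fewer pairs or the changed gene set that each brings.

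Depth limits AK140766, H2-Aa, Psg23 and Il18bp, called on fewer than 20 fragments per library. The 24 h and the 48 h libraries form 1 pair, and without it 76 of the 139 stayed among the calls.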
